A study of Homo sapiens with 12 samples.

Results

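The T-lineage transcription factors are 10 genes that direct T-cell development in the thymus: GATA3, TCF7, LEF1, BCL11B, RUNX1, RUNX3, IKZF1, MYB, ETS1 and TOX. They were chosen by name, and all 10 were found among the 58288 genes listed in both deposited tables. The study measured total RNA, depleted of ribosomal RNA, in HPB-ALL and KOPTK1, which are human cell lines of T-cell acute lymphoblastic leukaemia. Each line received either a control hairpin (shGFP) or a hairpin against SHQ1 (shSHQ1), with 3 libraries per hairpin and line. Cells were cultured for 48 h after infection and then selected with puromycin at 2 μg/ml for a further 48 h. SHQ1 is an assembly factor of the H/ACA ribonucleoproteins that guide pseudouridylation of RNA. Each condition rests on 1 established line, and both arms of each line carried a hairpin vector.

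T-cell precursors adopt their fate in the thymus when Notch signalling switches on TCF7 and GATA3, and BCL11B then closes off the other blood lineages. TCF7 and LEF1 are high-mobility-group proteins that share a binding motif and use β-catenin as a partner, while TOX belongs to another branch of the same DNA-binding fold. RUNX1 and RUNX3 bind DNA with the partner CBFB, IKZF1 (Ikaros) is a zinc-finger factor of lymphoid cells, and MYB and ETS1 act in proliferating precursors. In T-cell leukaemia several of these genes are known as altered drivers or tumour suppressors.

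The library columns were headed by numbers from 1 to 12 that name neither a hairpin nor a replicate. The table gave the line, so levels are given for 6 libraries per line, and the hairpin arms were not compared. SHQ1, the gene targeted by the hairpin, ran from 46.4 to 71.8 RPKM (the read count scaled by exon length and library total) in the HPB-ALL libraries, with a median of 59.7. In KOPTK1 it ran from 39.3 to 46.4 RPKM, with a median of 43.0. These values were not used to assign a hairpin to any library.

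Library totals were 36792076 to 42842791 counts in HPB-ALL and 22884785 to 36098045 counts in KOPTK1. The 3 KOPTK1 columns headed 1 to 3 stood apart from those headed 4 to 6. Over 12421 genes, the log-scale correlation of columns 1 to 3 with the HPB-ALL libraries was 0.970 to 0.975, against 0.919 to 0.927 for columns 4 to 6. Among 1715 protein-coding genes at least 2-fold apart between HPB-ALL and columns 4 to 6, the level in columns 1 to 3 lay between the levels of the lines for 99.9%, at a median of 44.1% of the way to HPB-ALL (quartiles 39.8% and 48.5%). The cause was not tested, and since the headers give no hairpin, these columns and the hairpin arms cannot be told apart. The tests of the 10 factors between the lines are therefore given with and without columns 1 to 3, and for the other genes named the level in columns 4 to 6, or the fold against it, is added where that fold moves by more than 1.5 times (PAX5, near 0 in both lines, excepted).

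The labelled cell type was checked with 14 T-lineage surface and signalling genes. The T-cell receptor components CD3D (295 RPKM in HPB-ALL and 301 in KOPTK1, each an average that the authors took over the line), CD3E (209 and 231), CD3G (104 and 90.5) and CD247 (56.4 and 86.3) were abundant in both lines, as were the kinases LCK (224 and 186) and ZAP70 (151 and 83.6) and the phosphatase PTPRC (102 and 109). CD2 (13.7 and 47.8), CD5 (27.9 and 28.3), CD7 (48.4 and 40.7) and the cortical thymocyte marker CD1A (27.3 and 20.8) were also above 10 RPKM. The coreceptors were low: CD4 was at 0.94 and 0.63 RPKM, CD8A at 0.97 and 5.47, and CD8B at 1.47 and 1.38. All 6 myeloid and all 6 erythroid and megakaryocyte markers were below 1 RPKM in both lines. Of 6 B-cell markers, CD79A reached 43.3 RPKM in HPB-ALL and 16.1 in KOPTK1 (5.87 to 7.17 in columns 4 to 6) and EBF1 reached 1.10 in HPB-ALL, with 0.42 in KOPTK1 (0.13 to 0.15 in columns 4 to 6), while PAX5, the defining B-lineage factor, was at 0.020 and 0.019.

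Promoter sequence is shown for 3 of the 10 genes: TCF7, which differed most between the lines, LEF1, its close relative, which did not pass the test, and RUNX3, the lowest in level. RefSeq windows (build GRCh38.p14, the 250 bases before and 50 after a transcript start) were found for 8 of the 10 genes, 17 windows in all. Capitals mark motif matches, searched on both strands, in the window of each gene that held one. In LEF1 the MYB motif CAACTG and the RUNX motif TGTGGT appear as written, in TCF7 the ETS motif CCGGAA appears as its reverse complement TTCCGG, and in RUNX3 the RUNX motif appears 2 times as its reverse complement ACCACA. The windows lie at chr5:134115363-134115662 on the + strand for TCF7, chr4:108166252-108166551 on the - strand for LEF1 and chr1:24964961-24965260 on the - strand for RUNX3, and each is printed 5′ to 3′. The RUNX3 transcript start is the start of the gene as listed in the tables, whereas the TCF7 and LEF1 windows belong to starts inside the listed genes, 902 and 2655 bases downstream.
TCF7 promoter: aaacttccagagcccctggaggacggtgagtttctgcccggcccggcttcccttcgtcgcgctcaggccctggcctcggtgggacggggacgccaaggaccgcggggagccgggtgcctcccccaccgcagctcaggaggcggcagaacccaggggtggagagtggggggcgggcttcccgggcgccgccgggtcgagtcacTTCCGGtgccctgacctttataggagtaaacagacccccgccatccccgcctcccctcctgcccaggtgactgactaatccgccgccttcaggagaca
LEF1 promoter: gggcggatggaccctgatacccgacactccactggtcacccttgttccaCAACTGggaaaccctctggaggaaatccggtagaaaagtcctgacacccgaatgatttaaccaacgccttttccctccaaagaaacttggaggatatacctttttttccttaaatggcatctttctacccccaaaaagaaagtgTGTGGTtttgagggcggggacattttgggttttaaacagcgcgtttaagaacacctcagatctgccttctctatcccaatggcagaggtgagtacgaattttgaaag
RUNX3 promoter: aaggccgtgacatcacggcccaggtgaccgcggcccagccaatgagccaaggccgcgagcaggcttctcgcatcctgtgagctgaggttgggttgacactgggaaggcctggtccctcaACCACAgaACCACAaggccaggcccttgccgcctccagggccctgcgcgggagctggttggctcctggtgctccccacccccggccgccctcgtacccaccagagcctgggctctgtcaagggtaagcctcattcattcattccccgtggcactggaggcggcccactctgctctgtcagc

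Counted from the first base of each window, the matches began at base 203 in TCF7, at bases 50 (MYB) and 194 (RUNX) in LEF1, and at bases 120 and 128 in RUNX3. Such matches are common: the ETS motif was in 17.2% of all 35116 windows, the RUNX motif in 13.1% and the MYB motif in 11.4%. Over the 17 windows of these genes, the ETS motif matched 4, the RUNX motif 4 and the MYB motif 2. The GATA motif AGATAA (10.3% of all windows) matched 1, in IKZF1, and the TCF/LEF motif CTTTGA (12.9%) matched 1, in GATA3. A match is a description of the sequence only.

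All 10 factors were expressed in both lines, and 9 of them were among the more abundant transcripts. The authors' average level ran from 8.67 (RUNX3) to 193 RPKM (LEF1) in HPB-ALL and from 6.64 (RUNX3) to 267 RPKM (TCF7) in KOPTK1. The median over the 10 genes was 76.3 RPKM in HPB-ALL and 84.5 in KOPTK1, against 11.9 over 12071 and 11.3 over 12263 protein-coding genes with at least 1 RPKM. Summed over the 10 genes, the level was 841 RPKM in HPB-ALL and 1105 in KOPTK1. The median percentile of the 10 genes among those protein-coding genes was 95.1 in HPB-ALL and 96.6 in KOPTK1. In bulk RNA, fewer cells that express a gene and less of its RNA per cell cannot be told apart.

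**Figure D1:**
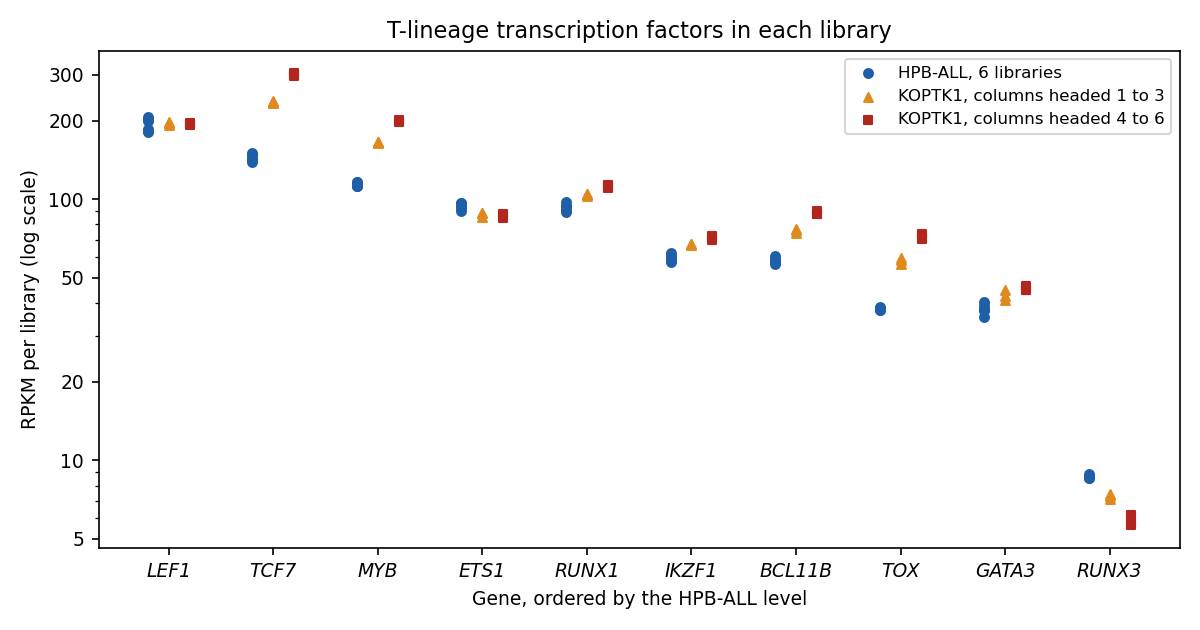
RPKM of each of the 10 genes in every library (log scale), with HPB-ALL as circles, the KOPTK1 columns headed 1 to 3 as triangles and those headed 4 to 6 as squares. The TCF7, MYB, TOX and BCL11B points step up from HPB-ALL through columns 1 to 3 to columns 4 to 6, the KOPTK1 LEF1 points lie between 2 sets of HPB-ALL points, and RUNX3 lies below 10 RPKM in every library.

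TCF7, the first factor of the T-cell program downstream of Notch, was the most abundant of the 10 genes in KOPTK1. It lies at chromosome 5, 134114711 to 134148229, on the + strand (GRCh38, as in the tables). Its level was 139 to 151 RPKM in the HPB-ALL libraries (median 142) and 233 to 303 RPKM in the KOPTK1 libraries (median 267). The lowest KOPTK1 library was above the highest HPB-ALL library. The KOPTK1 values fell into a set of 233 to 238 RPKM in columns 1 to 3 and a set of 296 to 303 RPKM in columns 4 to 6, so part of the spread within KOPTK1 followed those columns.

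LEF1 (chromosome 4, 108047545 to 108168956, - strand) encodes the other TCF family factor of thymocytes. It was the most abundant of the 10 genes in HPB-ALL, at 181 to 207 RPKM with a median of 192. The HPB-ALL values fell into a set of 181 to 185 RPKM in the columns headed 10 to 12 and a set of 199 to 207 RPKM in those headed 7 to 9. KOPTK1 libraries lay in the gap between these sets, at 193 to 197 RPKM with a median of 194. Columns 1 to 3 (193 to 197 RPKM) and columns 4 to 6 (193 to 196 RPKM) overlapped as well. An antisense gene, LEF1-AS1, shares 279 exon bases with LEF1 and had a count of 6.93% of the LEF1 count in HPB-ALL and 6.67% in KOPTK1. Whether counting used the strand is not given in the sources used here, so reads in the shared bases cannot be assigned to either gene with certainty.

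GATA3 (chromosome 10, 8054693 to 8075198, + strand), the zinc-finger factor needed from the earliest T-cell stages, was the ninth of the 10 genes in level in each line. It was at 35.5 to 40.5 RPKM in HPB-ALL (median 37.6) and at 41.1 to 46.4 RPKM in KOPTK1 (median 44.7). The ranges were separated by a small gap, and columns 1 to 3 (41.1 to 44.8 RPKM) overlapped columns 4 to 6 (44.7 to 46.4 RPKM).

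BCL11B (chromosome 14, 99169287 to 99271524, - strand), the zinc-finger factor that marks T-lineage commitment, was at 56.6 to 60.8 RPKM in HPB-ALL (median 58.4) and 74.1 to 90.3 RPKM in KOPTK1 (median 82.0). Every KOPTK1 library exceeded every HPB-ALL library. Columns 1 to 3 lay at 74.1 to 76.7 RPKM, below the 87.4 to 90.3 RPKM of columns 4 to 6.

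TOX (chromosome 8, 58805418 to 59119208, - strand), an HMG-box factor required for the CD4 lineage in the thymus, varied least among the HPB-ALL libraries, at 37.7 to 38.5 RPKM with a median of 37.9. In KOPTK1 it was at 56.3 to 73.5 RPKM with a median of 64.8. The ranges were well apart, with columns 1 to 3 (56.3 to 59.3 RPKM) again nearer to HPB-ALL than columns 4 to 6 (70.4 to 73.5 RPKM).

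The RUNX genes differed widely in level. RUNX1 (chromosome 21, 34787801 to 35049344, - strand), the RUNX factor of early thymocytes and of blood stem cells, was at 89.3 to 97.2 RPKM in HPB-ALL (median 93.4) and at 103 to 113 RPKM in KOPTK1 (median 108). RUNX3 (chromosome 1, 24899511 to 24965010, - strand), which acts in the CD8 lineage, was at 8.53 to 8.83 RPKM in HPB-ALL (median 8.68) and at 5.64 to 7.46 RPKM in KOPTK1 (median 6.65). Every RUNX1 value was higher in KOPTK1 and every RUNX3 value was higher in HPB-ALL. RUNX3 was the only one of the 10 genes under the 87th percentile in either line, at percentile 39.2 in HPB-ALL and 32.6 in KOPTK1, and its counts ran from 577 to 1628 per library.

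IKZF1 (chromosome 7, 50304728 to 50405101, + strand), the Ikaros factor that restrains Notch targets in thymocytes, was at 57.7 to 62.4 RPKM in HPB-ALL (median 59.3) and at 66.5 to 72.0 RPKM in KOPTK1 (median 68.6). The ranges did not overlap, and columns 1 to 3 (66.5 to 67.5 RPKM) sat just below columns 4 to 6 (69.6 to 72.0 RPKM).

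MYB (chromosome 6, 135181315 to 135219173, + strand), a factor of proliferating precursors and an oncogene in T-cell leukaemia, was at 112 to 117 RPKM in HPB-ALL (median 113) and at 164 to 200 RPKM in KOPTK1 (median 182). All KOPTK1 libraries were higher, in a set of 164 to 166 RPKM (columns 1 to 3) and a set of 198 to 200 RPKM (columns 4 to 6). The antisense gene MYB-AS1 shares 103 exon bases with MYB, and its count was 7.34% of the MYB count in each line.

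ETS1 (chromosome 11, 128458761 to 128587558, - strand), the founding ETS-family factor and abundant in lymphocytes, was at 90.2 to 96.5 RPKM in HPB-ALL (median 94.6) and at 84.7 to 88.4 RPKM in KOPTK1 (median 87.3). Its ranges were close but did not overlap, and columns 1 to 3 (85.4 to 88.4 RPKM) overlapped columns 4 to 6 (84.7 to 87.6 RPKM).

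By the authors' averages the order in HPB-ALL was LEF1, TCF7, MYB, ETS1, RUNX1, IKZF1, BCL11B, TOX, GATA3 and RUNX3. Among neighbours in that order, the library ranges overlapped for ETS1 and RUNX1, for IKZF1 and BCL11B, and for TOX and GATA3. In KOPTK1 the order was TCF7, LEF1, MYB, RUNX1, ETS1, BCL11B, IKZF1, TOX, GATA3 and RUNX3, with overlapping ranges for LEF1 and MYB, for ETS1 and BCL11B, and for IKZF1 and TOX. LEF1 stood above TCF7 in HPB-ALL and below it in KOPTK1, with separate ranges in each line. The highest and lowest of the 10 genes were 22.3-fold apart in HPB-ALL and 40.2-fold apart in KOPTK1.

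The spread between libraries of a line was small. The highest over the lowest library had a median ratio of 1.08 over the 10 genes in HPB-ALL, against 1.10 over 6758 genes at 10 RPKM or more, and of 1.17 in KOPTK1, against 1.18 over 6688 genes. Within KOPTK1 columns 4 to 6 the medians were 1.03 and 1.06. The largest ratio among the 10 genes was 1.14 in HPB-ALL, for GATA3 and LEF1, and 1.32 in KOPTK1, for RUNX3.

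The lines differed in most of these genes, with TCF7, TOX, MYB and BCL11B higher in KOPTK1 by the largest amounts. By the authors' averages KOPTK1 exceeded HPB-ALL by 1.85-fold for TCF7, 1.71-fold for TOX and 1.41-fold for BCL11B, with MYB between these, and by 1.16-fold each for GATA3, RUNX1 and IKZF1. RUNX3 was 1.31-fold and ETS1 1.08-fold higher in HPB-ALL, and LEF1 was within 1.01-fold. Library ranges were apart for 9 of the 10 genes, all but LEF1, against 43.7% of the 25479 genes at 1 RPKM or more in either line. None of the 10 genes was 2-fold apart by the average level, against 11.9% of those genes. Most of the 10 genes were far above 1 RPKM. For neither measure was the share computed among genes of like level, so whether these contrasts are particular to the 10 factors was not tested.

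**Figure D2:**
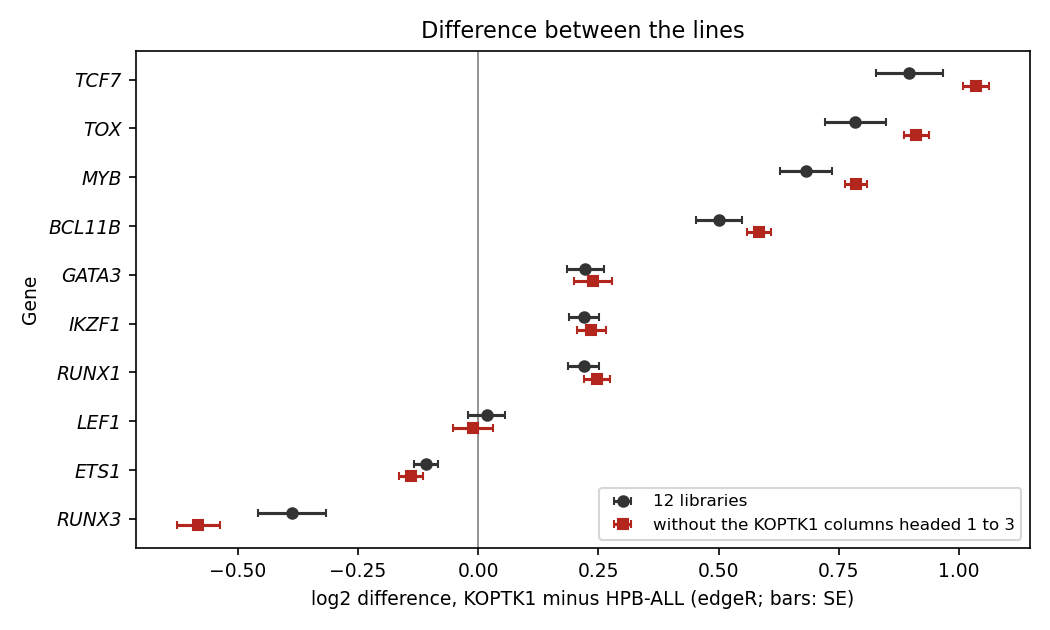
The log2 difference of each gene, KOPTK1 minus HPB-ALL, from the edgeR fit on 12 libraries (circles) and without the KOPTK1 columns headed 1 to 3 (squares), with bars of 1 SE. TCF7 is at 0.90 and 1.04, LEF1 lies at 0, and RUNX3 is at -0.39 and -0.58.

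Differences between the lines were tested with edgeR's quasi-likelihood test on all 12 libraries, adjusted by the Benjamini-Hochberg method over 25479 genes. At an adjusted p under 0.05, 7 of the 10 genes were higher in KOPTK1, where 32.7% of all tested genes were, and 2 were higher in HPB-ALL, where 30.1% were. Among 9345 genes at 10 RPKM or more in either line, closer to these factors in level, 77.2% were called in either direction, and 8 of the 9 factors in that set were. A call between the lines was thus common at this level of expression. The median difference in the fit was 0.22 on the log2 scale over the 10 genes. By the authors' averages the median (KOPTK1 over HPB-ALL) was 0.21 over the 10 genes and 0.05 over the 25479 genes. Libraries of both hairpins enter each line, and with 1 line on each side the p-values measure only the spread between these libraries, which may be technical.

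The KOPTK1 excess was 0.90 ± 0.07 for TCF7 (log2 difference ± SE, 6 libraries per line, edgeR adjusted p 1.7e-07), 0.78 ± 0.06 for TOX (adjusted p 2.4e-07), 0.68 ± 0.05 for MYB (adjusted p 2.1e-07) and 0.50 ± 0.05 for BCL11B (adjusted p 1e-06). GATA3 (0.22 ± 0.04, edgeR adjusted p 0.00022), RUNX1 (0.22 ± 0.03, adjusted p 5e-05) and IKZF1 (0.22 ± 0.03, adjusted p 3.5e-05) were higher in KOPTK1 by a smaller amount. RUNX3 differed by -0.39 ± 0.07 (edgeR adjusted p 0.0003) and ETS1 by -0.11 ± 0.02 (adjusted p 0.0014), with the higher level in HPB-ALL. LEF1 did not pass, at 0.02 ± 0.04 (edgeR adjusted p 0.72), and its sign changed between settings. When levels were centred on 10 reference genes, whose median log2 difference was -0.12, the ETS1 difference of the authors' averages went from -0.11 to 0.0018 and so changed sign.

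By size, among 22430 genes at 1 RPKM or more in both lines, 8.93% were at least as far apart by the authors' averages as TCF7, 12.05% as TOX, 15.8% as MYB, 26.8% as BCL11B and 37.2% as RUNX3. Most genes were at least as far apart as the other 5: the share was 60.5% for GATA3, 60.9% for IKZF1, 61.0% for RUNX1, 78.0% for ETS1 and 97.8% for LEF1.

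Without the KOPTK1 columns headed 1 to 3, 9 of the 10 genes were called, against 67.3% of 25479 genes. TCF7 was then 2.08-fold higher in KOPTK1 by the average level and was the only one of the 10 past 2-fold, against 20.9% of genes. The log2 differences were 1.04 ± 0.03 for TCF7, 0.91 ± 0.03 for TOX, 0.79 ± 0.02 for MYB, 0.58 ± 0.03 for BCL11B and -0.58 ± 0.04 for RUNX3. Those of GATA3 (0.24), RUNX1 (0.25), IKZF1 (0.24) and ETS1 (-0.14) moved less, and LEF1 was at -0.01. This fit sets 3 KOPTK1 libraries against 6 of HPB-ALL. The headers give no hairpin, so columns 4 to 6 may be of 1 hairpin, and line and hairpin cannot be told apart here. Its SEs rest on the spread of those columns and of HPB-ALL. The share called among genes of like level was not computed for this fit.

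The place of columns 1 to 3 between the lines was read gene by gene, with 0% at the mean of columns 4 to 6 and 100% at the mean of HPB-ALL. It had a median over the 3 columns of 41.5% for TCF7, 40.0% for MYB, 40.7% for TOX, 40.3% for BCL11B and 40.8% for RUNX1. For IKZF1 it was 31.2% and for RUNX3 51.8%. For these 7 genes the range of columns 1 to 3 overlapped neither the range of columns 4 to 6 nor that of HPB-ALL. The share of all genes with such separate ranges was not computed, so the separation is not read as a trait of these factors. For GATA3, LEF1 and ETS1 columns 1 to 3 overlapped columns 4 to 6.

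**Figure D3:**
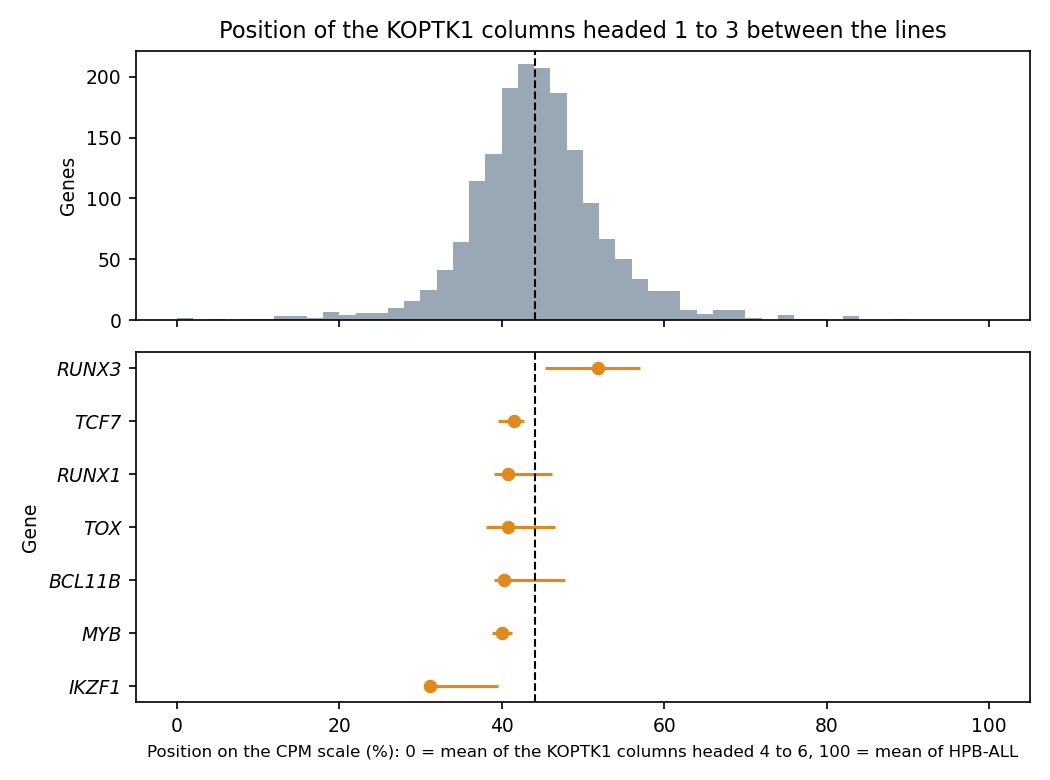
Level of the KOPTK1 columns headed 1 to 3 as a position between the mean of columns 4 to 6 (0%) and the mean of HPB-ALL (100%). The upper panel counts 1715 protein-coding genes at least 2-fold apart, the lower panel gives the median (point) and range (line) over the 3 columns for 7 genes, and the dashed line marks the median of 44.1%.

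Family members and partners of these factors were read from a list of 23 genes. Of them 11 reached 10 RPKM in either line, 6 lay between 1 and 10 RPKM, and 6 were below 1 RPKM in both lines. MYBL2, the cell-cycle MYB gene, was the most abundant at 140 RPKM in HPB-ALL and 146 in KOPTK1. The RUNX partner CBFB was at 67.2 and 53.6 RPKM, the Ikaros relative IKZF2 at 63.8 and 49.4, and the chromatin organiser SATB1 at 44.0 and 47.3. The ETS-family genes FLI1 (31.6 and 28.9 RPKM) and ETS2 (23.6 and 16.4), the TCF/LEF partner CTNNB1 (25.1 and 29.0), TOX4 (23.9 and 23.6) and the repressor GFI1 (14.0 and 13.2) were also above 10 RPKM in both lines. ZBTB16 (PLZF, the factor of innate-like T cells) was at 35.8 RPKM in HPB-ALL and 12.7 in KOPTK1, and IKZF3 (Aiolos) at 4.15 and 13.9.

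**Figure D4:**
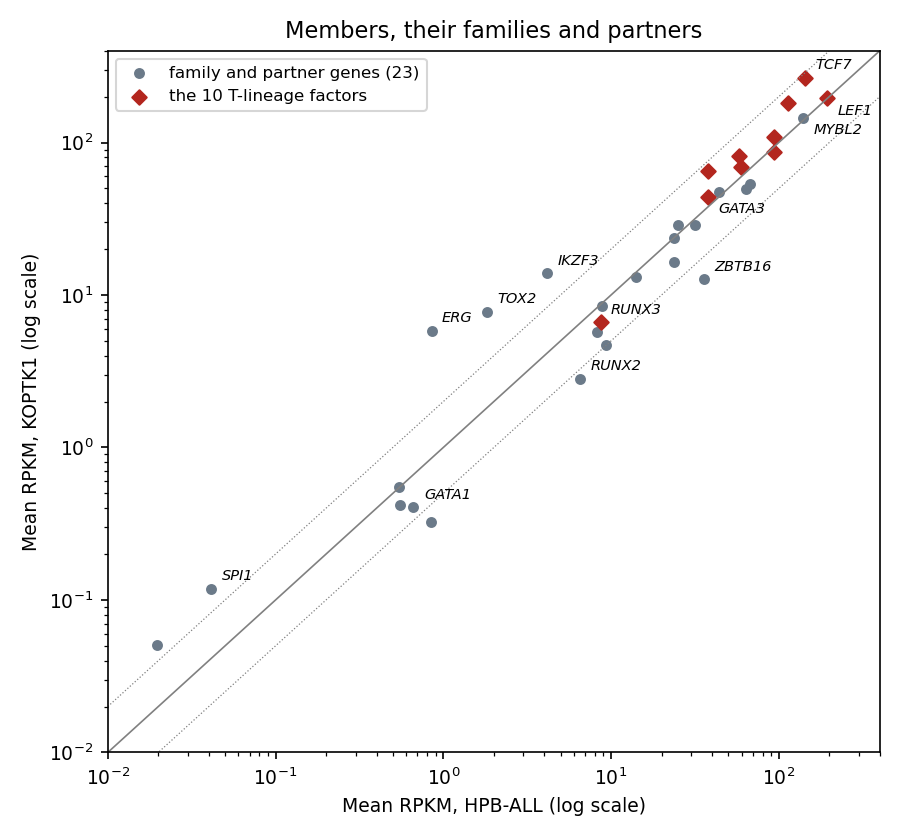
Mean RPKM in HPB-ALL (x) and KOPTK1 (y), both on log scales, of the 10 T-lineage factors (diamonds) and 23 family and partner genes (circles), with the line of equal levels and dotted lines at 2-fold. The 10 factors lie within the dotted lines, and 5 of the 17 other genes at 1 RPKM or more in either line lie outside.

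Of the 17 genes on this list that could be tested, edgeR called 6 higher in KOPTK1 and 8 higher in HPB-ALL. Over all tested genes the shares were 32.7% and 30.1%. TCF7L2, TOX4 and GFI1 did not pass. The median difference of the 17 genes was -0.09 on the log2 scale. In the fit without columns 1 to 3 the counts were 5 and 10, where 67.3% of all tested genes were called in either direction. TCF7L2 and GFI1 passed in that fit, whereas MYBL2 and TOX4 did not. ZBTB16 was 2.81-fold higher in HPB-ALL (log2 difference -1.51 ± 0.29, edgeR adjusted p 0.00052) and 5.84-fold higher against columns 4 to 6. IKZF3 was 3.35-fold higher in KOPTK1 (1.75 ± 0.11, edgeR adjusted p 3e-08). The other 3 genes more than 2-fold apart were singled out after their values were seen: ERG, an ETS-family gene, was at 0.85 RPKM in HPB-ALL and 5.83 in KOPTK1, TOX2 was at 1.82 and 7.78, and RUNX2 was at 6.57 and 2.82. Against columns 4 to 6 alone, RUNX2 was 3.91-fold higher in HPB-ALL, in place of 2.33-fold.

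The 6 genes of this list below 1 RPKM in both lines included the erythroid factor GATA1 and the myeloid factor SPI1. GATA1 was at 0.66 RPKM in HPB-ALL and 0.40 in KOPTK1, GATA2 at 0.55 and 0.42, TCF7L1 at 0.54 and 0.55, the CD4-lineage factor ZBTB7B at 0.85 and 0.33 (0.10 to 0.13 in columns 4 to 6), TOX3 at 0.020 and 0.051, and SPI1 at 0.041 and 0.12. Each of the 10 T-lineage factors was above these 6 genes, which follows from picking the 6 for being below 1 RPKM. Other genes of the list, such as MYBL2 (140 RPKM in HPB-ALL and 146 in KOPTK1), were above RUNX3.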

How the data were processed

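RNA was sequenced from 2 lines with 3 libraries per hairpin. The submitters' processing notes name, per the labels, Trimmomatic 0.36, STAR 2.5.4b, Picard 2.18.7, featureCounts 1.6.2 and edgeR 3.22.3 with build hg38. The deposited tables, 1 per line, hold unnormalized estimated counts per gene for 6 libraries (15.1% to 17.2% of genes have a fractional count in a library), summed exon length, and the authors' average log2 CPM over the line. They also hold the authors' fold changes and p-values for the knockdown, which were not used. Library columns carry bare numbers, so each was assigned to its line only, and the planned comparison of hairpins within each line was not run.

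Mean RPKM was computed from the authors' average log2 CPM and exon length, and RPKM per library from the counts and library totals. The line test was added after the data were seen. It used counts rounded to whole numbers, genes at 1 RPKM or more on average in either line, and TMM scaling in edgeR 4.0.16 under R 4.3.3. It was also run on simulated data. These held no shift of the KOPTK1 columns headed 1 to 3 and no hairpin arms, so they do not show how the test behaves with either. Alternatives were DESeq2 1.42.0, library totals alone, other filters, other centrings, each library left out, and the KOPTK1 columns headed 1 to 3 left out. Symbols were found for 95.9% of gene identifiers, and 99.97% of 18982 protein-coding genes overlap their RefSeq position in GRCh38.

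All 10 genes and 23 family and partner genes were chosen with earlier results of these data known. Named beside them were family and partner genes at 10 RPKM or more in either line or below 1 in both, T-lineage markers, and markers of other cell types above 1 RPKM. A result for 1 such marker is not reported here. Depth leaves the lowest of the 10 genes with 577 counts or more per library, and intervals over libraries cover the spread between libraries only.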

Additional observations from a re-analysis of the deposited data

How the results depend on the processing

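No paired analysis was possible because the library columns carry no replicate numbers that match the labels. For the same reason the planned hairpin comparisons, with their pseudocounts, filters, centring, replicate block, left-out replicates and other tools, were not run. Of 427 alternative values for single genes, 397 kept their call or stayed within the spread between libraries (percentiles within 5), 22 moved further and 8 reversed, the cause of which was not tested. Of these 8, 7 were LEF1 differences that were not called, and 1 was the ETS1 ratio of average levels (KOPTK1 over HPB-ALL), 0.0018 on the log2 scale when centred on reference genes. Under that centring 1 gene was 2-fold apart and the median log2 ratio of the 10 genes was 0.33, against 0 genes and 0.21 as deposited. Without the KOPTK1 columns headed 1 to 3, 1 gene (TCF7) was 2-fold apart. Without a correction for length, 3 pairs of the 10 genes changed order in HPB-ALL and 5 in KOPTK1.

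The edgeR fit called 9 of the 10 genes in every alternative except the filter at 10 RPKM, which RUNX3 does not pass and which left 8. LEF1 was not called in any. Its log2 difference (KOPTK1 minus HPB-ALL) was -0.011 without columns 1 to 3, -0.0047 in DESeq2, -0.052 with no filter, and -0.0017 to 0.042 with each library left out. Of all genes, edgeR called 16002 with 12 libraries, DESeq2 called 15909, and edgeR called 7218 of the 9345 left by the filter at 10 RPKM. With each library left out in turn, edgeR called 15180 to 16280 genes and 9 of the 10 factors, 7 to 8 factors were higher in KOPTK1 by the average level, 0 were 2-fold apart, and the median log2 ratio was 0.21 to 0.23. No single library of the 6 per line stood far from the other 5 for any of the 10 genes (the largest gap of the highest or lowest library to the next was 0.513 of the range, under Dixon's critical value), a measure that does not see the split between KOPTK1 columns 1 to 3 and 4 to 6. Columns 1 to 3 limit every value for KOPTK1.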

Other observations

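In HPB-ALL, the LEF1 level per library was 207, 199 and 204 RPKM in the columns headed 7, 8 and 9, and 185, 182 and 181 RPKM in those headed 10, 11 and 12. SHQ1, the target of the hairpin, was at 70.3, 71.8 and 70.9 RPKM in columns 7, 8 and 9 and at 47.6, 46.4 and 49.1 RPKM in columns 10, 11 and 12. In KOPTK1, SHQ1 was at 45.7, 44.1 and 46.4 RPKM in columns 1, 2 and 3 and at 41.9, 41.8 and 39.3 RPKM in columns 4, 5 and 6. Both genes thus fell into separate sets of HPB-ALL columns, and LEF1 was not alone in this among the 10 factors. IKZF1 was at 60.0 to 62.4 RPKM in columns 7 to 9 and 57.7 to 58.6 in columns 10 to 12. GATA3 was at 37.6 to 40.5 and 35.5 to 37.5 RPKM. ETS1 went the other way, at 90.2 to 94.4 and 94.8 to 96.5 RPKM. For the rest of the 10 factors the sets overlapped. The gap between the sets was narrow for GATA3 (37.6 against 37.5 RPKM) and for ETS1 (94.4 against 94.8 RPKM). The share of all genes with separate sets was not computed, so the sets are not read as a trait of these factors. The headers give no hairpin, so no column was assigned to one and the difference between the sets was not tested.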
